A study of Mus musculus with 12 samples.

Results

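Small-subunit ribosomal protein genes encode the proteins of the 40S ribosomal subunit, which binds the mRNA and reads its codons. The 28 genes described here are a list chosen by name, Rpsa and 27 Rps genes, among 21728 protein-coding genes of the annotation. Rps27a, Fau and the Rps6k kinases were left out of it, and 4 further Rps genes of the cytosolic small subunit that the list does not name are not described here. A LARP1 region was assigned to such a gene if it overlapped, on the same strand, the 5′UTR, coding sequence (CDS) or 3′UTR of any of its annotated coding transcripts. Of 3199 regions in the control list, 64 were in these genes, and of 2381 regions in the Rnmt cKO list, 110 were. Exonic regions of all protein-coding genes, counted in the same way, numbered 685 (control) and 1172 (Rnmt cKO). The higher count in Rnmt cKO was therefore not particular to this group, although the whole list was shorter.

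Most mRNAs of ribosomal proteins are TOP mRNAs. They begin, right after the cap, with a cytosine followed by an unbroken stretch of pyrimidines, the 5′ terminal oligopyrimidine (TOP) motif, which couples their translation to nutrient and growth signals through mTOR. LARP1 is an RNA binding protein whose DM15 domain holds the cap and the bases next to it in TOP mRNAs, and LARP1 is known both to repress their translation and to stabilise them. RNMT is the methyltransferase that adds the N7 methyl group to the guanosine cap, so the comparison asked where LARP1 contacts these mRNAs and whether its contacts differ when RNMT is deleted.

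LARP1 contacts were mapped by eCLIP, in which ultraviolet light fixes a protein to RNA in the cells, the protein is recovered with its RNA, and cDNAs that stop beside the crosslinked base are sequenced. The cells were CD4 T cells from lymph nodes of female mice. The paper calls them naïve, while its eCLIP methods describe magnetic sorting of CD4 T cells and name no step that selects naïve ones. Control mice were Rnmt fl/fl CD4cre - and Rnmt cKO mice were Rnmt fl/fl CD4cre +, so both carried the floxed Rnmt alleles, and the Cre is driven by the Cd4 promoter, which is active in T cells from the double-positive stage of the thymus. Each genotype gave 1 LARP1 immunoprecipitation library of the 12 libraries in the series, and the number of mice behind each was not given in the sources used here. Differences between the lists therefore have no replicate check, no p-value is given, and genotype and library cannot be told apart.

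Crosslink sites near each other had been joined into regions, each with a score that sums the scores of its sites. Read depth is unknown from these lists, and scores are not scaled between libraries, so a region was described by its rank within its own list, after 10 control and 14 Rnmt cKO regions on chromosome Y were left out (rank 1 is the highest score, among 3189 control and 2367 Rnmt cKO regions). Regions made of 1 crosslink site were 82.6% of the control list and 54.7% of the Rnmt cKO list. The lists had not been filtered against the IgG immunoprecipitations, and regions on chromosome Y were called although the mice were female. Some regions, above all those of low score, may therefore not be LARP1 contacts, and this was not tested. A list of LARP1 regions does not measure expression, and of the T cell markers Cd4, Cd3e, Cd8a, Ccr7 and Il7r a 5′UTR region was called for Cd4 in both lists and for the others in neither. Rnmt had 0 exonic regions in both lists, so its deletion could not be checked from them.

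The sequences at the highest-scoring 5′UTR regions are shown first, since a place within a pyrimidine stretch is what these regions have in common. The first set holds the genes among the 5 best ranked in either list, in which the bases in capitals are the control region and the bases around it are the gene strand, 5′ to 3′ (GRCm38, from GENCODE M21 transcripts and the RefSeq promoter sequences of GRCm38.p6).

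Rps12, chr10:23787182-23787211, minus strand: ccaccgccggccTTTTcccctgccgccgcc
Rps19, chr7:24884624-24884653, plus strand: cccgtcgttcccTTTCccctggctggcagc
Rps16, chr7:28350740-28350769, plus strand: cccgcgcttcccTTTTccggtcgcggcgct
Rps27, chr3:90213631-90213660, minus strand: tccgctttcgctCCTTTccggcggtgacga
Rps26, chr10:128626480-128626509, minus strand: gccggatcctctTTCgagtcttggctccaa
Rps20, chr4:3835579-3835608, minus strand: cggcccctccttTCtgagccccggcggtgc
Rps15, chr10:80292449-80292478, plus strand: gcccgtacttccTTTTCcgagtaaccgcca
Rps15a, chr7:118116139-118116168, minus strand: ggcccactctctTTctgccatcttccctcg

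The second set holds genes whose region moved in rank between the lists or lay far from an annotated transcript start, with the control region again in capitals.

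Rps6, chr4:86857346-86857375, minus strand: agtcgggcctctTTTTcgtgacgcctccca
Rps25, chr9:44407687-44407716, plus strand: ccgggcttccttTTtttccgacatcttagc
Rps18, chr17:33955642-33955671, minus strand: tccgctctctctTCcacaggaggcctacac
Rps3, chr7:99483630-99483659, minus strand: agccacttccttTCctttcagcggcgcgcg
Rps4x, chrX:102189302-102189331, minus strand: aggcgagtctctTTccgttcctagcgcagc
Rps23, chr13:90923157-90923186, plus strand: cctcctctctctTTCtcttgggcccgtggc

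The third set holds the 4 genes without a 5′UTR region in either list, in which capitals mark the longest unbroken C or T run of the annotated 5′UTR.

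Rps3a1, chr3:86142577-86142606, minus strand: gttgtacttccgCCCTTTTggctctccggt
Rps29, chr12:69159074-69159103, minus strand: cgagccgactcgTTCCTTTCTCCTCgttgg
Rps27l, chr9:66946086-66946115, plus strand: gCCTCTatcccggaagttgctgaggggcgc
Rps27rt, chr9:114982710-114982739, minus strand: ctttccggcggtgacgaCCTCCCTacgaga

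LARP1 regions covered nearly the whole gene group. A 5′UTR region was called in 24 of the 28 genes in the control list, where 1.33% of all protein-coding genes had one, and in the same 24 genes in the Rnmt cKO list, where 1.50% had one. With regions in any exon of a coding transcript counted, 25 genes were covered in control and 26 in Rnmt cKO, against 2.36% and 2.92% of all protein-coding genes. These background shares count every annotated protein-coding gene, whether expressed in the cells or not. The part of mRNA abundance in the contrast was not tested. No gene of the group had a 3′UTR region in either list. Of all protein-coding genes 0.801% had one in control and 1.31% in Rnmt cKO. At shares this low, the lack of one among 28 genes does not set the group apart. Of the control regions of the group 25 were in 5′UTRs and 39 in CDS, and of the Rnmt cKO regions 28 were in 5′UTRs and 82 in CDS.

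Related gene groups were looked up beside these. The large-subunit genes had a 5′UTR region in 44 of 52 genes in control and 46 of 52 in Rnmt cKO. Rack1, Fau and Rps27a, whose products also belong to or sit on the 40S subunit, all had regions in their 5′UTR in both lists. The genes for the small subunit of the mitochondrial ribosome had an exonic region in 1 of 29 genes in each list, and the Rps6k kinases, which include those that phosphorylate RPS6, in 0 of 10 genes in control and 1 of 10 in Rnmt cKO.

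Within the 5′UTRs, each best-scoring region began inside a pyrimidine stretch. In both lists the first base of the best region of all 24 genes lay in an unbroken run of at least 5 C or T bases, with a median run length of 11 nt and a range from 7 nt in Rpsa to 20 nt in Rps2. Each of these runs also held, at or 5′ of the region, a C followed by at least 4 more C or T bases on the gene strand, the letters of a TOP start. The first base of the region was not the first base of the run in any gene, but had 2 to 12 bases of the run before it in the control list, with a median of 6, and 2 to 11 bases in the Rnmt cKO list, with a median of 5. The run began with C in 16 genes and with T in 8. With the highest-scoring site taken in place of the first base, or the last base where a region has gaps between its sites, 23 genes in control and 20 in Rnmt cKO had such a run there.

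For comparison, such a run held the first base of the best 5′UTR region in 42 of 44 large-subunit genes of the control list and 42 of 46 of the Rnmt cKO list. Outside ribosomal protein genes it did so in 149 of 212 genes (70.3%) and 162 of 247 genes (65.6%). Of the bases 1 to 50 after all RefSeq gene starts, 13.0% lay in such a run. A window of 30 bases, from 12 before to 18 after the start, held a C followed by at least 4 C or T bases on the gene strand in 36.1% of all 32851 RefSeq starts and in 19 of 30 starts of the small-subunit genes, which had an entry for 25 of the 28. These values describe sequence only.

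The best 5′UTR regions of the 2 lists lay on top of each other. In all 24 genes they overlapped, and in all 24 the control region lay wholly within the Rnmt cKO region. In 9 genes the regions were identical. The 5′ end was the same in 14 genes and lay 1 to 3 nt further 5′ in the Rnmt cKO list in the other 10, and in no gene was it further 3′. The 3′ end was the same in 12 genes and lay further 3′ in the Rnmt cKO list in 12, by 23 nt in Rps13, a body protein, and by 21 nt in Rps28, a head protein. In the plot of region extents these were the 2 regions that ran far past the end of the pyrimidine run.

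Crosslink sites were more numerous in the Rnmt cKO regions. The best 5′UTR region held more sites in the Rnmt cKO list in 19 genes, as many in 5 and fewer in 0, and the median was 2.5 sites in control and 5 in Rnmt cKO. The whole Rnmt cKO list also held fewer regions of 1 site, as given above, and the part of this in the wider regions was not tested. Of 44 large-subunit genes, all 44 had the control region within the Rnmt cKO region, and of 150 genes outside the ribosomal proteins with overlapping best regions 126 did (84.0%), with a shorter Rnmt cKO region in 16. The first base was a T in 21 of 25 control and 15 of 28 Rnmt cKO 5′UTR regions, and a C in 3 and 11.

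**Figure D1:**
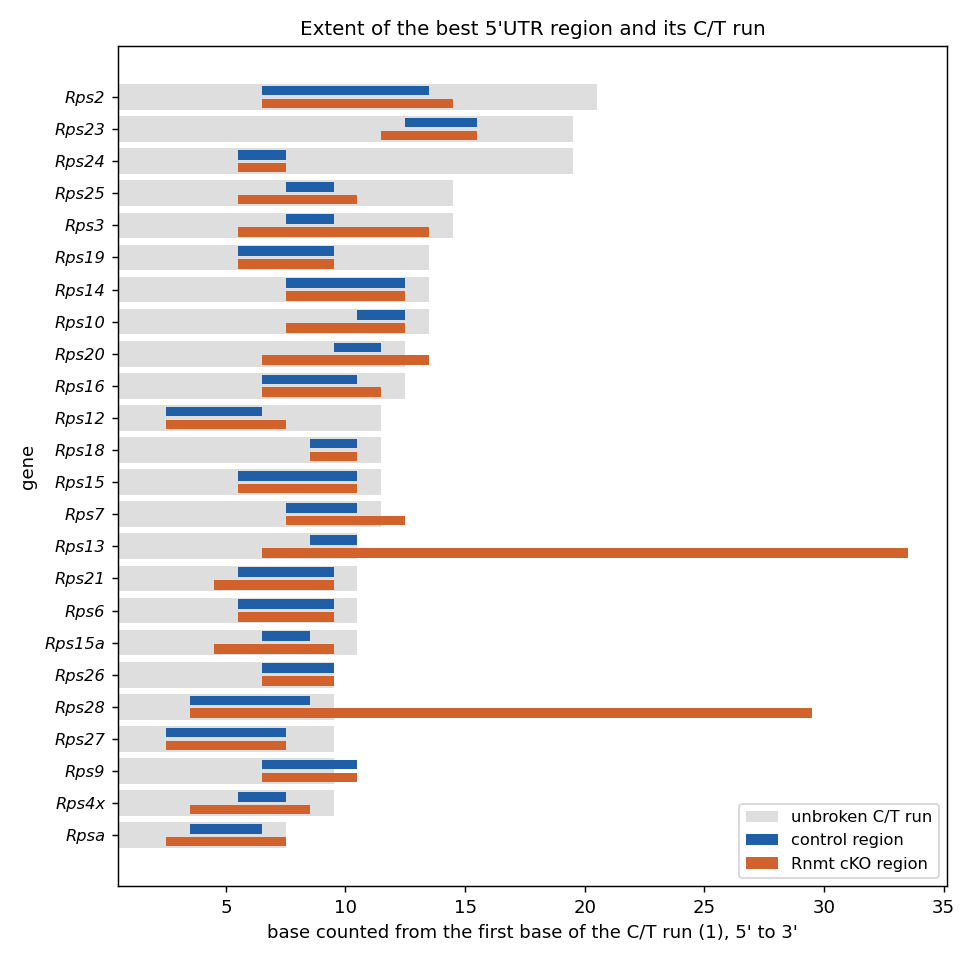
Extent of the best 5′UTR region of each gene in the control list (blue) and the Rnmt cKO list (orange), on the unbroken C or T run that holds it (grey), for the 24 genes with such a region. The x axis counts bases 5′ to 3′ from the first base of the run, each row is 1 gene, and each list comes from 1 library. Every control bar lies within the span of the orange bar below it, and the orange bars of Rps13 and Rps28 reach far past the run.

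The regions were placed against the annotated starts. The first base of the best region lay within 10 nt of the nearest annotated transcript start in 17 genes in each list. It lay downstream of the nearest start by 17 nt in Rps4x, 27 nt in Rps26 and 69 nt in Rps20 in the control list, and by 15, 27 and 66 nt in the Rnmt cKO list. In 4 genes the nearest annotated start was 3′ of the region, by 11 nt in Rps16, 12 nt in Rps14, 27 nt in Rps15a and 48 nt in Rps23 in the control list. In the Rnmt cKO list these distances were 11, 12, 29 and 49 nt. In those 7 genes, too, the region began in a C or T run, of 9 to 19 nt. The nearest start was taken over all annotated transcripts of a gene, non-coding ones included. From the start of the principal transcript alone, the median distance of 5′UTR regions was 72 nt in control and 70 nt in Rnmt cKO. In the control list only the best regions of Rps15 (8 nt), Rps24 (3 nt) and Rps27 (3 nt) were placed within 10 nt of that start. Measured from the start codon, the best regions of the 24 genes began 19 to 110 nt upstream in the control list, with a median of 33.5 nt, and 19 to 113 nt upstream in the Rnmt cKO list, with a median of 34 nt.

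The best 5′UTR regions were among the highest-scoring regions of each list. Their ranks ran from 5 to 130 in the control list, with a median of 41, and from 3 to 97 in the Rnmt cKO list, with a median of 34.5. As a share of the list, the median rank was 1.29% and 1.46%, and with at least 2 crosslink sites required the order turned, to 7.40 and 3.22% of the shorter lists. The scores ran from 304.5 to 2159 in control and from 478 to 1707 in Rnmt cKO, and 22 and 24 of the 24 genes ranked within the first 100 regions. Of the large-subunit genes with a 5′UTR region, 34 of 44 in control and 40 of 46 in Rnmt cKO did. All regions of the small-subunit group together held 32.4% of the summed score of exonic regions in control and 27.4% in Rnmt cKO, and the large-subunit genes held 38.9% and 42.6%. Of the summed score of all regions of the list the small-subunit group held 16.3% in control and 20.5% in Rnmt cKO, so the order of the lists depended on whether regions outside exons were counted. The paper reports high abundance of ribosomal protein mRNAs in naïve CD4 T cells, with a lower share of transcripts in Rnmt cKO. The part of abundance in these scores and ranks was not tested.

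The proteins of the 40S head and those of its body and platform were set side by side. In the control list the median rank was 1.49% of the list over 10 head genes with a 5′UTR region and 1.11% over 14 body and platform genes. In the Rnmt cKO list the order was the other way, with 1.23% and 1.61%. The ranges of the head and body genes overlapped in both lists.

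The best ranked region of the group in the control list was in Rps12, a head protein. Its region at chr10:23787196-23787199 held 4 sites with a score of 2159 and rank 5, and in the Rnmt cKO list the region was 1 base longer, with 5 sites, a score of 1544 and rank 9. Rps12 was the only gene with a lesser 5′UTR region in both lists, which began 13 nt upstream of the start codon with a score of 239 in control and 18 nt upstream with a score of 384 in Rnmt cKO. Further 5′UTR regions of the Rnmt cKO list alone were found in Rps14, Rps15a and Rps27. In Rps14, a platform protein, the region began 4 nt upstream of the start codon with a score of 125, over the place of a control CDS region, and in Rps15a it was a single site with a score of 3.24. In Rps27 it had 4 sites and a score of 293, and it began at base 95 of the coding sequence of the reference transcript, since it is 5′UTR in another annotated transcript.

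Rps19, a head protein and the gene most often mutated in Diamond-Blackfan anaemia, had rank 7 with a score of 2051 in control and rank 30 with a score of 1260 in Rnmt cKO, on the same 4 bases. Rps16, a head protein whose tail reaches the tRNA in the P site, had rank 8 with a score of 2010 and rank 28 with a score of 1294. Rps27, a zinc finger protein of the platform, had rank 10 with a score of 1899 and rank 19 with a score of 1383, on the same 5 bases.

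The best ranked region of the group in the Rnmt cKO list was in Rps20, a head protein. It had rank 3 there, with 6 sites and a score of 1707, and rank 49 in the control list, with 2 sites and a score of 963. Rps15, a head protein near the decoding site, had rank 13 with a score of 1451 in the Rnmt cKO list and rank 46 with a score of 971 in the control list. Rps15a, a body protein, had rank 17 with a score of 1403, and rank 50 with a score of 958. Rps12 and Rps27 were among the best 5 genes of the group in both lists, and the other best genes differed.

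Ranks of the 2 lists were then set against each other. Over the 24 genes, Spearman's rho between control and Rnmt cKO ranks was 0.44, a description over points that come from 1 library each and share its model and depth. The rank was nearer the top in the Rnmt cKO list in 10 genes, further down in 13 and equal in Rps28, at 85. As a share of the list, which is shorter in the Rnmt cKO, it was nearer the top in 8 genes and further down in 16.

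The genes that moved most towards the top in the Rnmt cKO list were Rps6, Rps25 and Rps20. Rps6, whose protein is phosphorylated by the S6 kinases downstream of mTOR, had rank 106 with a score of 418 in control and rank 35 with a score of 1195 in Rnmt cKO, on the same 4 bases. Rps25, a head protein needed by some internal ribosome entry sites, had rank 80 with a score of 579 and rank 27 with a score of 1300. By rank number, the genes that moved most away from the top were Rps18, Rps26 and Rps3, while as a share of the list Rps24 moved further (by 1.75 percentage points) than Rps3 (1.72) and Rps26 (1.62). Rps18, a head protein near the P site, had rank 54 with a score of 893 and rank 93 with a score of 493, on the same 2 bases. Rps26, which lines the mRNA exit channel, had rank 13 with a score of 1653 and rank 48 with a score of 1049, on the same 3 bases. Rps3, at the mRNA entry channel, had rank 34 with a score of 1238 and rank 66 with a score of 768. With 1 library for each genotype the spread that such moves have between libraries is not known.

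The other genes with a 5′UTR region kept ranks within the first 130 regions of both lists. Rps7, a body protein, had rank 15 with a score of 1604 in control and rank 25 with a score of 1314 in Rnmt cKO, and Rps9, beside the mRNA entry channel, had ranks 28 and 34. Rpsa, also known as the laminin receptor, had ranks 30 and 42, with scores of 1264 and 1105, and Rps14 had ranks 31 and 20, with scores of 1260 and 1371. These 4 genes are of the body and platform.

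Rps21 had ranks 35 and 41, with scores of 1217 and 1121. Rps23, a protein of the decoding centre, had ranks 36 and 23, with scores of 1216 and 1331. Rps24 had ranks 48 and 77, with scores of 969 and 627 and 2 sites in each list.

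Rps10, a head protein, had ranks 55 and 71, with scores of 888 and 690. Rps4x, the X-linked copy of RPS4, had ranks 58 and 46, with scores of 826 and 1066, and Rps13 had ranks 72 and 43, with scores of 626 and 1102. Rps2 had the last rank of the group in each list, 130 with a score of 304.5 and 97 with a score of 478, although its pyrimidine run was the longest, at 20 nt.

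**Figure D2:**
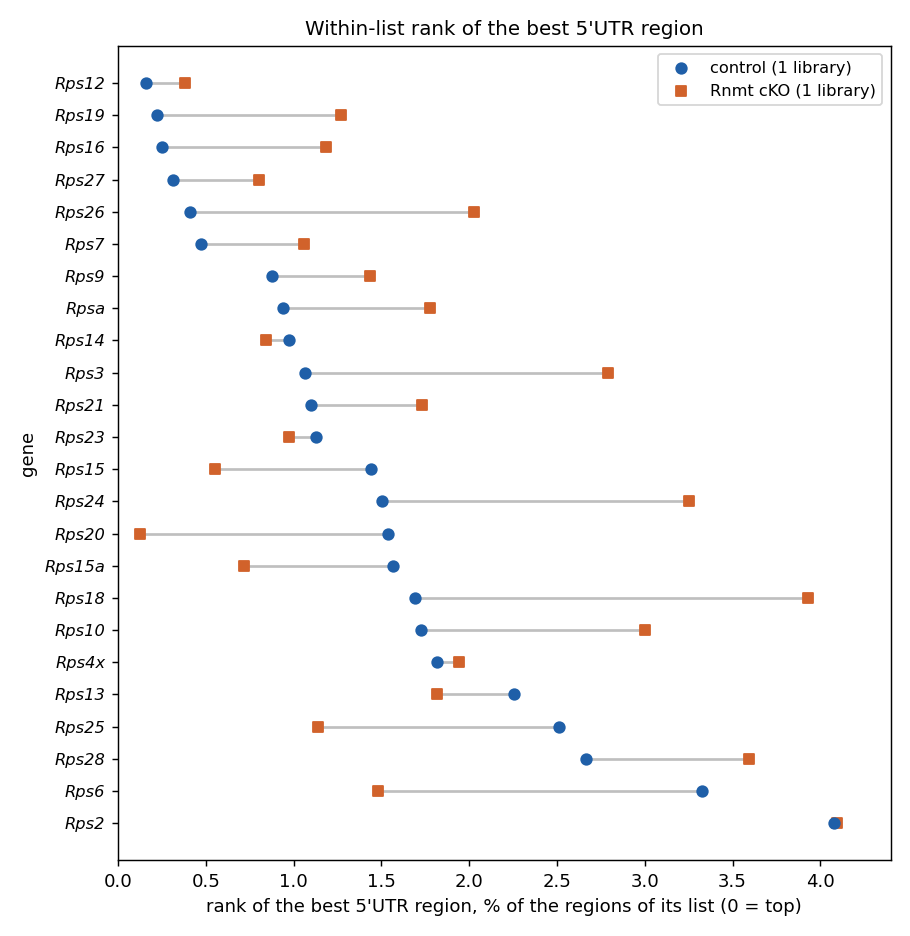
Rank of the best 5′UTR region of each of the 24 genes within its own list, as a percentage of the regions of that list (x axis, 0 at the top of the list), in the control list (blue circles) and the Rnmt cKO list (orange squares). Genes are ordered by the control rank, a grey line joins the values of 1 gene, and each list comes from 1 library. All points lie at or below 4.10%, and Rps20, Rps6 and Rps25 have the orange square well to the left of the blue circle.

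The 4 genes without a 5′UTR region had different patterns. Rps3a1, a platform protein, had 2 CDS regions in the control list, with scores of 34.8 and 0.449, and 4 in the Rnmt cKO list, the highest with a score of 87.7. Rps29, a small zinc finger protein of the head, had no region in control and 3 CDS regions of 1 site each in Rnmt cKO, with scores of 75.1, 34.1 and 10.2. Of the 50-base windows of the coding sequence, 100% in Rps29 and 88.3% in Rps3a1 also occur in transcripts of other genes. The part of such copies in the regions called or missing in these 2 genes was not tested. Both had pyrimidine runs in the annotated 5′UTR, as shown above. The longest run of Rps29 had 13 nt and began 33 nt upstream of the start codon, and that of Rps3a1 had 7 nt and began 25 nt upstream. The best control regions of the other genes began 19 to 110 nt upstream, counted from the first base of the region and not of its run. Around the RefSeq start of Rps3a1 the longest run had 2 nt, and Rps29 had no RefSeq start.

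Rps27l and Rps27rt, which are related to Rps27, had no region in either list. The coding sequence of Rps27rt is identical to that of Rps27 over 252 bases, in a single exon, and that of Rps27l is identical at 76.2% of its bases. The first 50 bases of the Rps27rt transcript also occur in Rps27 transcripts. The authors removed alignments of low mapping quality, a step that takes away reads which match such copies equally well, so regions of Rps27 and Rps27rt are uncertain. How many reads of either gene were removed was not tested.

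CDS regions were more numerous in the Rnmt cKO list. A CDS region was called in 23 of 28 genes in the control list, where 0.612% of all protein-coding genes had one, and in 26 in the Rnmt cKO list, where 0.893% had one. The number of CDS regions was 39 and 82, or 2.95 and 6.20 per kb of coding sequence, and it was higher in the Rnmt cKO list in 20 genes, equal in 7 and lower in Rps4x alone. The large-subunit genes had 66 and 152 CDS regions, or 2.40 and 5.52 per kb, with more in the Rnmt cKO list in 35 of 52 genes. Genes outside the ribosomal protein set had 88 and 159 CDS regions. More CDS regions in the Rnmt cKO list were thus found in all 3 sets. With at least 2 crosslink sites required, a CDS region of the small-subunit group was called in 7 genes of the control list and 24 of the Rnmt cKO list.

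Most control CDS regions overlapped a region of the Rnmt cKO list. Of 39 control CDS regions, 34 overlapped a region of the Rnmt cKO list (87.2%, 95% Wilson interval 73.3 to 94.4%), and all 34 lay wholly within it. Of 82 Rnmt cKO CDS regions, 34 overlapped a control region (41.5%, 31.4 to 52.3%). These intervals cover counting error over regions only. Of the control CDS regions 31 were single sites (79.5%), and 20 of these overlapped an Rnmt cKO region of more sites. Outside ribosomal protein genes 31 of 88 control CDS regions were shared (35.2%, 26.1 to 45.6%), and in the large-subunit genes 57 of 66 (86.4%, 76.1 to 92.7%).

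CDS regions scored far lower than 5′UTR regions. In the control list the median score was 18.5 in CDS and 971 in 5′UTRs, and in the Rnmt cKO list 30.3 and 1113. Within the Rnmt cKO list, CDS regions that overlapped a control region had a median score of 70.8, against 18.7 for the other 48. The group's highest CDS score in the control list was 441, at rank 100, in Rps20, 8 nt into the coding sequence. The same place had a score of 447 in the Rnmt cKO list. The group's highest CDS score in the Rnmt cKO list was 460, at rank 101, in Rps27, with 4 sites beginning at base 170 of the coding sequence. The overlapping control region was a single site with a score of 1.01 and rank 2810.

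The genes of the group with the most CDS regions in the control list were Rps14, Rps24 and Rps25, with 3 each. In the Rnmt cKO list they were Rps3 with 7, and Rps2, Rps15 and Rps21 with 5 each. Rps3 had 2 in the control list, with scores of 35.6 and 3.52, and its 7 Rnmt cKO regions had scores from 2.85 to 107. Rps2, which lies at the mRNA entry channel, had 1 in the control list with a score of 27.3, and in the Rnmt cKO list its scores ran from 21.2 to 126. Rps15 had 1, with a score of 6.01, and in the Rnmt cKO list its 5 regions had scores from 0.159 to 14.9, at ranks from 908 to 2318. Rps21 had 2, with scores of 36.1 and 34.1, and in the Rnmt cKO list its scores ran from 21.7 to 112.

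**Figure D3:**
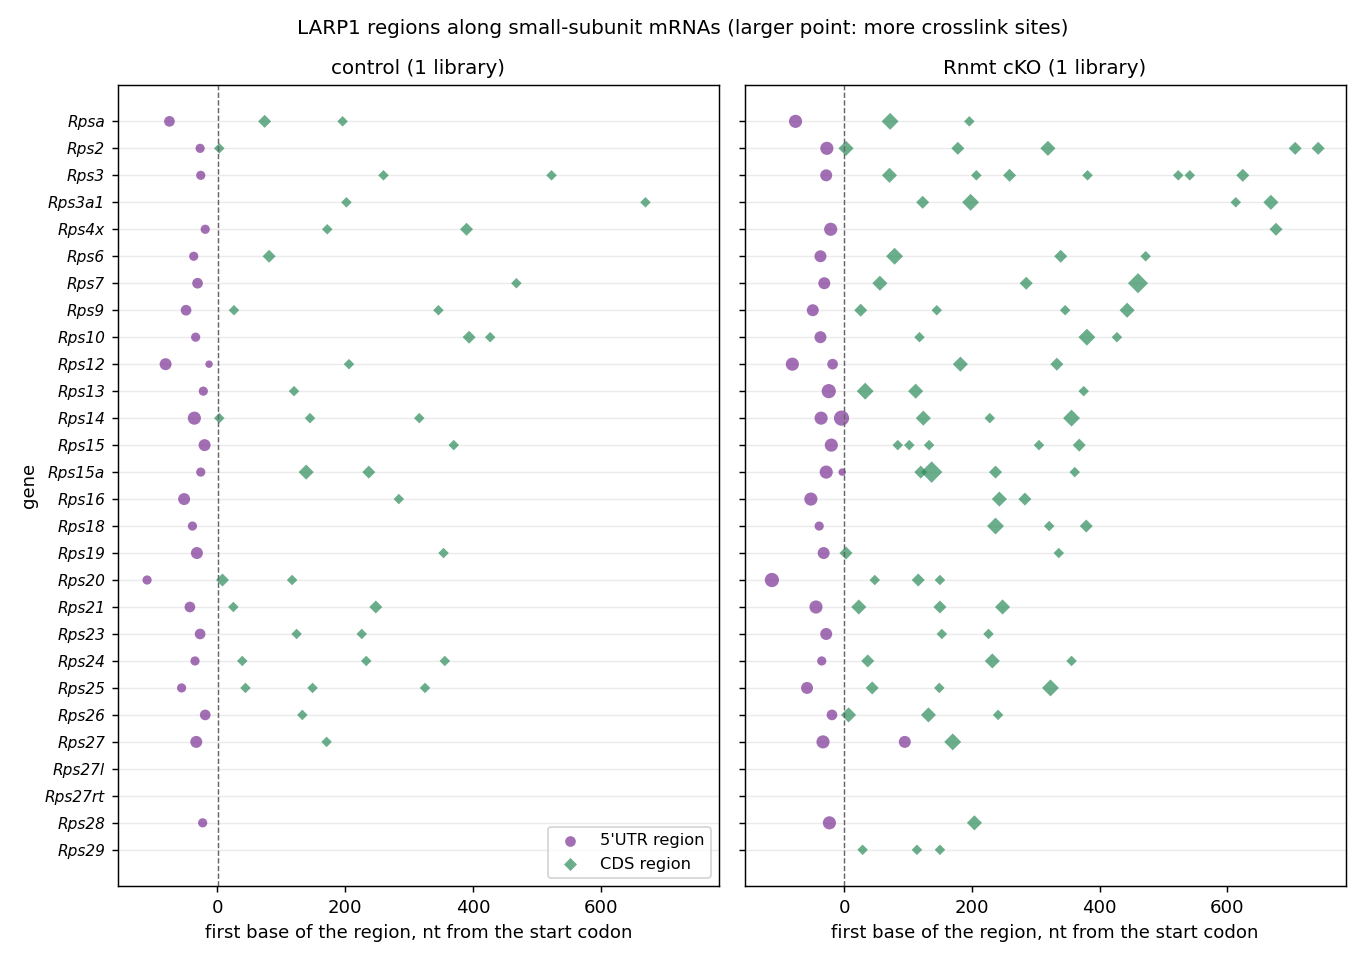
First base of each region along the mRNA of the 28 genes, in nt from the start codon (dashed line, x axis), in the control list (left) and the Rnmt cKO list (right), with 5′UTR regions as purple circles and CDS regions as green diamonds. Larger points have more crosslink sites, each list comes from 1 library, and 4 Rnmt cKO CDS regions whose first base could not be placed on the coding sequence are not drawn. Circles upstream of the start codon lie at like distances in both panels, with further ones for Rps14 and Rps15a on the right, where 1 circle of Rps27 lies downstream of it, and the right panel has more diamonds.

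CDS regions were spread along the coding sequence. Of 39 control regions 21 began in the 5′ part up to 50% of the coding length and 18 beyond it. Of the 78 Rnmt cKO regions whose first base could be placed on the coding sequence, 38 and 40 did. Within 20 nt of an exon junction began 14 of 39 control regions (35.9%) and 30 of 78 Rnmt cKO regions (38.5%), while 30.6% of the coding bases of the group lie that near a junction. The first base of a CDS region was a G in 19 of 39 control regions (48.7%) and 30 of 82 Rnmt cKO regions (36.6%), and G makes up 28.1% of the coding bases. It was a T in 10 control regions (25.6%) and 31 Rnmt cKO regions (37.8%), and T makes up 20.7% of the coding bases. Some regions began at the G of the start codon itself, as in Rps2 in both lists, Rps14 in control and Rps19 in Rnmt cKO.

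Copies of these sequences elsewhere in the genome leave the origin of some regions uncertain. In 9 of the 28 genes every 50-base window of the coding sequence also occurs in a transcript of another gene, and in Rps3 8.09% of windows do. The 9 genes are Rps6, Rps12, Rps13, Rps16, Rps23, Rps27, Rps27rt, Rps28 and Rps29. The 50 bases from the best 5′UTR region onwards occur in another gene in 5 of the 24 genes, which are Rps12, Rps13, Rps15, Rps15a and Rps18. Rps27 is not counted among them, but the first 50 bases of the Rps27rt transcript match Rps27 from inside its best region onwards. How far reads were placed on the wrong copy was not tested.

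The share of a gene's score that lay in its 5′UTR was lower in the Rnmt cKO list. Over the 24 genes the median share was 97.3% in the control list, with a range from 68.3 to 100%, and 86.8% in the Rnmt cKO list, with a range from 58.6 to 98.8%. The share was lower in the Rnmt cKO list in 21 genes and higher in Rps4x, Rps6 and Rps20. In Rps24 it was 84.8 and 58.6%, in Rps2 91.8 and 68.1%, and in Rps27 99.9 and 78.4%, and the best 5′UTR region began at the same base in both lists in all 3 genes. The Rps27 value of the Rnmt cKO list counts the region at base 95 of the reference coding sequence as 5′UTR, and without it, a choice made after seeing the data, the share was 64.7%. In Rps20 it was 68.3 and 75.9%, and in Rps6 72.9 and 84.6%. Of 44 large-subunit genes with 5′UTR regions in each list, the share was lower in the Rnmt cKO list in 34, higher in 9 and equal in 1. Since a share depends on the model fitted to each library, and the Rnmt cKO list also has more CDS regions outside this group, the part of the library in this difference was not tested.

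**Figure D4:**
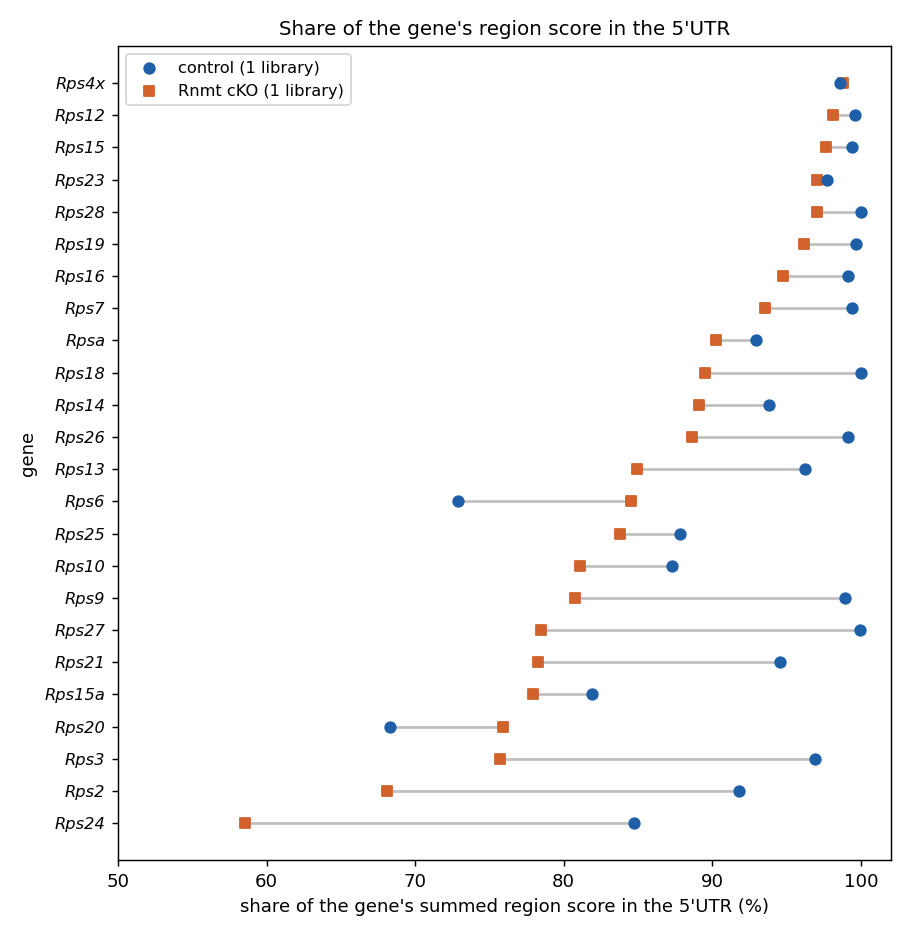
Share of the summed region score of each of the 24 genes that lay in its 5′UTR (x axis, %, drawn from 50), in the control list (blue circles) and the Rnmt cKO list (orange squares), with genes ordered by the Rnmt cKO value. A grey line joins the values of 1 gene and each list comes from 1 library. The orange square lies to the left of the blue circle in 21 genes and to the right in Rps4x, Rps6 and Rps20.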

How the data were processed

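LARP1 eCLIP of CD4 T cells, called naïve by the paper, was used as 2 region lists, from 1 control and 1 Rnmt cKO immunoprecipitation. The authors extracted the 10 nt barcode (umi_tools), trimmed adapters (cutadapt), aligned reads to mm10 (STAR 2.5.2b), removed PCR duplicates and alignments of mapping quality below 20, and called crosslink sites per library with PureCLIP against the size-matched input, joining nearby sites within 30 nt. The authors' deposited region score is the sum of site scores. These lists precede the authors' later selection of regions by the ratios of LARP1 reads to input reads and to IgG reads.

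Regions were classed on GENCODE M21 (GRCm38) with 5′UTR taken before CDS and CDS before 3′UTR, by an overlap of at least 1 nt on the same strand, in Python 3.11.15 with NumPy 2.4.6, SciPy 1.17.1 and Biopython 1.88. The scripts were tested on simulated placements. The best region is the 5′UTR region with the highest score. Shares have 95% Wilson intervals. No test was made, since each genotype is 1 library. Genes given in full were the 5 best ranked in each list, those with a region in 1 list or neither, those with the most CDS regions, the 3 that moved most in rank each way, and those more than 10 nt from a transcript start. The genes and lists were chosen with earlier results of these data known. Alternatives were the number of sites, the score, the transcripts, the overlap, the start used and the way of ranking. The other 10 libraries of the series (preliminary antibodies, IgG, inputs) were not analysed here.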

Additional observations from a re-analysis of the deposited data

Results flagged for a closer look

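Signal was also present in places that the comparisons above do not use. On the strand of the group's genes but outside their coding exons, 5 Rnmt cKO and 3 control regions were called. All 3 control regions overlapped an Rnmt cKO region. They were a single site in a retained intron of Rps21, with a score of 88.1, whose wider Rnmt cKO region reached the coding sequence and scored 34.5, a single site in an intron of Rps9, with scores of 18.8 (control) and 13.0 (Rnmt cKO), and a single site in a non-coding transcript of Rps19, with scores of 39.0 and 58.4. The highest-scoring one was in a retained intron of Rps25, in the Rnmt cKO list alone, with a score of 94.8. On the opposite strand 0 regions were called in either list.

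In exons of the 110 pseudogenes named after small-subunit genes, 4 control and 7 Rnmt cKO regions were called. Single-site regions in Rps10-ps1, Rps10-ps2 and Rps16-ps2 were called at the same bases in both lists. The highest score was 62.9, in Rps10-ps1 in the control list. Reads of the parent genes can be placed on such copies, and this was not tested.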

How the results depend on the processing

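No paired analysis was possible because only 1 library was made for each genotype. Of 86 alternative values, 68 stayed within the limits set for a change and 18 moved. The counts of genes with a 5′UTR region, and of genes with that region in a pyrimidine run, stayed at 24 in both lists under the alternatives run for them, except that the run held the highest-scoring site (site scores read in genomic order), or the last base where a region has gaps between sites, in 23 genes of the control and 20 of the Rnmt cKO list. With at least 2 crosslink sites, the control list fell to 32 regions in the group and 7 genes with a CDS region, shared regions were 96.9% of the control and 39.2% of the Rnmt cKO regions, and the median rank was 7.40 and 3.22% of the shorter lists. With regions above the median score the median rank was 2.77 and 2.92%, and among 5′UTR regions alone 8.80 and 8.66%, by construction of shorter lists. When regions whose score occurs 20 or more times were removed, a choice made after seeing the data, it was 1.95% (control) and 1.48% (Rnmt cKO). The order of the lists in median rank, 1.29 and 1.46%, thus turned with at least 2 sites, among 5′UTR regions alone and without repeated scores. With an overlap of at least 50% of each region, shared regions fell to 46.9 and 27.3%. The median distance of 5′UTR regions, 1 nt from the nearest annotated start in the control list and 0 nt in the Rnmt cKO list, became 72 and 70 nt from the start of the principal transcript, and 10 and 22 nt, the other way round in order, from the nearest RefSeq start, also chosen after seeing the data, over the genes with an entry. As a share of the score of all regions, the group held 16.3% in control and 20.5% in Rnmt cKO, against 32.4 and 27.4% of the exonic score, so this order turned as well. Read depth is unknown from the lists, and without replicates no difference between the lists can be told from a difference between libraries.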
